A study of Mus musculus with 8 samples.

Results

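Embryonic stem cells (ESC) given T0901317 (T09), which activates the liver X receptors (LXR), were compared with untreated ESC, with attention to gene programmes outside the known LXR targets. Both libraries came from the mouse E14 line, and they were 2 of the 8 libraries of the series, chosen by their labels alone. The treated cells were harvested after 3 days with the agonist. Its dose is labelled 1 uM/mL, from which the molar concentration cannot be read. No vehicle is named for the untreated cells. Both cultures grew on gelatin in a DMEM-based medium with 15% serum, LIF at 1000 units/mL, 3 µM CHIR99021, which inhibits GSK3, and 1 µM PD0325901, which inhibits MEK. The medium was replaced every 24 hours, and the interval between the last change and harvest is not given in the sources used here. RNA was sequenced from bulk total RNA, and the deposited values were read counts per gene. The nearest other pair was the same treatment of expanded potential stem cells (EPSC), derived from ESC over 5 passages in another medium, and it shares no library with the ESC pair.

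LXR alpha and LXR beta are nuclear receptors that sense oxidised cholesterol and act as dimers with the retinoid X receptors. Agonists switch on genes that move cholesterol out of the cell, limit its uptake and make fatty acids. T0901317 is also known to bind other nuclear receptors, among them PXR and FXR, and to repress the ROR receptors. ESC kept with LIF and inhibitors of GSK3 and MEK stay close to the naive epiblast, and a small share of them passes in and out of a state with genes of the embryo at its first cleavage.

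Total counts were 36835100 in T09-treated ESC and 33923249 in untreated ESC, within a range of 24666260 to 40781415 over the series. Each group had 1 library, so no difference could be set against the spread between cultures and no p-value is given. Ratios are log2 ratios of scaled counts with a prior count of 2, and the intervals in brackets are 95% exact Clopper-Pearson intervals that cover counting error only. Levels are scaled CPM. Of 24888 genes, 13412 had at least 20 counts in 1 of the ESC libraries and are called tested here. A gene was called higher or lower when the ratio was at least 2-fold and the interval excluded a ratio of 1.

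The treatment and the cell label were checked first. Abca1 and Abcg1, which export cholesterol, stood at 340 and 103 CPM in T09-treated ESC, against 51.0 and 6.72 CPM in untreated ESC. Srebf1, which drives fatty acid synthesis, had 284 CPM in T09-treated ESC and 96.9 CPM in untreated ESC. Nr1h2, which encodes LXR beta, had 73.3 CPM in T09-treated ESC and 64.4 CPM in untreated ESC, and Nr1h3, for LXR alpha, had only 29 counts in T09-treated ESC and 37 in untreated ESC. The core pluripotency factors were high in both libraries. Pou5f1 had 1387 CPM in T09-treated and 1343 CPM in untreated ESC, Sox2 had 398 CPM in T09-treated and 393 CPM in untreated ESC, and Nanog had 1220 CPM in T09-treated and 1457 CPM in untreated ESC. Of 26 naive and core pluripotency genes, 0 were called, and their median ratio was 0.01. Of 11 fibroblast markers, 4 were tested and 0 were called, with a summed level of 26.6 CPM in T09-treated ESC and 22.6 CPM in untreated ESC. The best counted of the 4 was Pdgfrb, with 684 counts in T09-treated ESC and 477 in untreated ESC. Thy1 had 96 counts in T09-treated ESC and 54 in untreated ESC, Col1a1 had 84 and 97, and Twist1 had 76 and 103. The other listed markers lay under the count minimum. Among them, Col1a2, Lum, Prrx1 and S100a4 had some counts. Col3a1, Dcn and Postn had 0 counts in both libraries, which allows up to 0.0837 CPM in T09-treated and 0.0904 CPM in untreated ESC.

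Over all tested genes, 525 (3.91%) were called, 186 higher (1.39%) and 339 lower (2.53%). These shares are the background against which the counts of each gene group are given below. The median ratio was 0.01, and the central 90% of genes lay between -0.71 and 0.57. Most calls came from thinly counted genes: 76.4% had under 100 counts in both libraries. Among the 1323 genes with 20 to 50 counts, 99 were higher (7.48%) and 199 lower (15%). At 50 to 100 counts 3.01% were higher and 7.32% lower. These larger shares are the nearer background for thinly counted lists, such as the 2-cell-like and histone lists below. Among the 4219 genes with at least 2000 counts, 10 were higher and 2 lower. Of the called genes, 86 were predicted or unnamed loci, 21 higher and 65 lower.

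**Figure D1:**
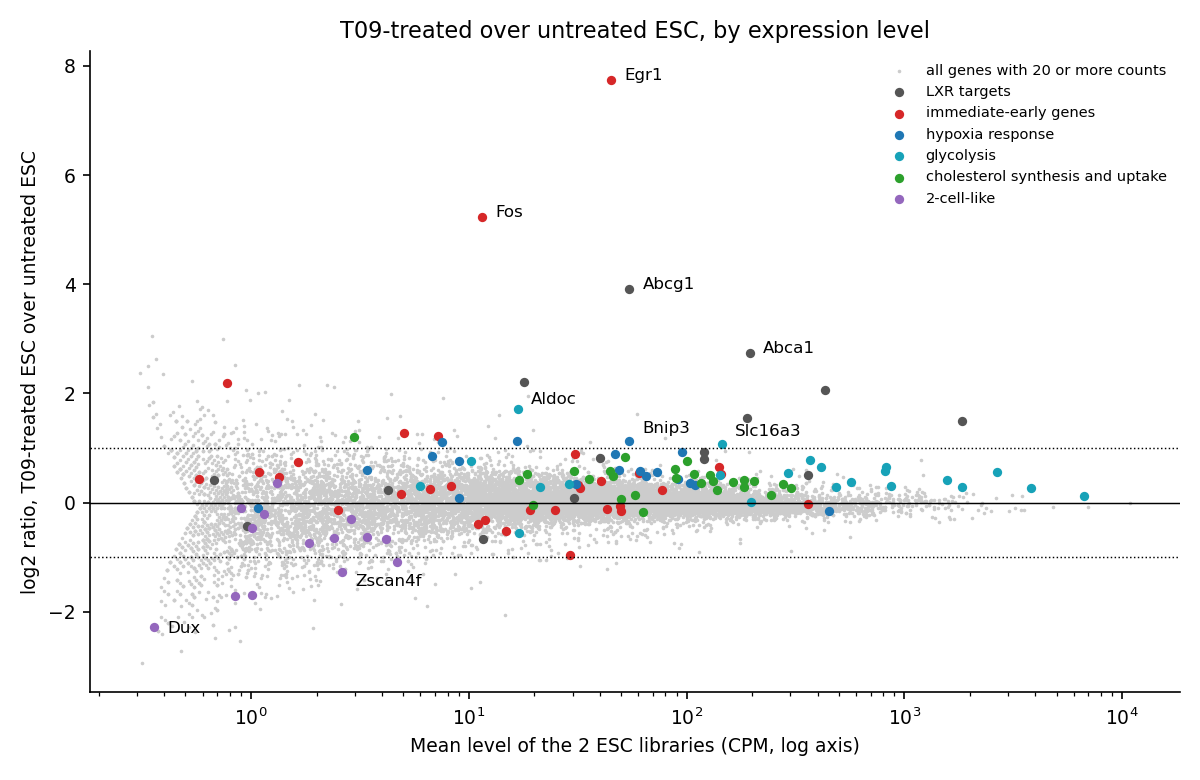
Log2 ratio of T09-treated over untreated ESC (vertical axis) against the mean level of the 2 ESC libraries in CPM (horizontal log axis), 1 point per gene with at least 20 counts, with 6 gene lists in colour and dotted lines at a 2-fold ratio. The spread of the grey points widens at low levels, and Egr1 at 7.74 and Fos at 5.23 lie above the LXR targets Abcg1 and Abca1.

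The gene furthest from its untreated level was not an LXR target but Egr1, a transcription factor that cells switch on within minutes of a growth signal. Egr1 had 3221 counts in T09-treated ESC and 12 in untreated ESC, or 89.9 against 0.362 CPM, a log2 ratio of 7.74 (7.15 to 8.91). Fos, which encodes a subunit of the AP-1 transcription factor, had 808 counts in T09-treated ESC and 18 in untreated ESC, a ratio of 5.23 (4.71 to 6.14). Both genes were thus close to silent in the untreated library and well counted in the treated one. Fosb, a relative of Fos, had 47 counts in T09-treated ESC and 8 in untreated ESC (2.19, interval 1.35 to 3.74). Maff, which encodes a small Maf factor, had 258 counts in T09-treated ESC and 97 in untreated ESC (1.28, 0.96 to 1.65). Ier3, a survival gene induced by growth and stress signals, had 365 counts in T09-treated ESC and 144 in untreated ESC (1.22, 0.95 to 1.52).

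These 5 were the called members among 31 tested of 37 immediate-early genes, the first genes transcribed after a stimulus, and none was called lower. The median over the 31 was 0.31, with 20 above 0 and 11 below. Several members that are usually induced together with Egr1 and Fos were not called, as these examples show. Dusp1, a phosphatase that shuts off MAP kinases, had 40.0 CPM in T09-treated ESC and 21.5 CPM in untreated ESC, a ratio of 0.90. Ier2 had 169 CPM in T09-treated ESC and 118 in untreated ESC, Nr4a1 had 46.0 CPM in T09-treated ESC and 35.2 in untreated ESC, and Jun had 5.13 CPM in T09-treated ESC and 4.61 in untreated ESC. Junb had 1254 counts in T09-treated ESC and 934 in untreated ESC, a ratio of 0.31. Atf3, a stress-induced factor, had 85 counts in T09-treated ESC and 87 in untreated ESC. Egr2, a relative of Egr1, lay under the count minimum, with 18 counts in T09-treated ESC and 1 in untreated ESC (2.67, 1.40 to 9.44). So the highest ratios of tested members sat on Egr1, Fos and Fosb, while Jun and Junb stayed within 1.5-fold. Jund had a ratio of 0.65 and Fosl2 had 0.555, and neither was called. Fosl1 lay under the count minimum, with 2 counts in T09-treated ESC and 9 in untreated ESC.

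Feedback genes of FGF and ERK signalling were read beside the immediate-early genes, and signalling itself was not tested. PD0325901, which acts on this pathway, was in both cultures. Of 16 tested, 0 were higher and 1 was lower, with a median of -0.11. The lower gene was Fgfr2, an FGF receptor, with 57 counts in T09-treated ESC and 126 in untreated ESC (-1.23, -1.73 to -0.79). Dusp6, a phosphatase of ERK named as an example, had 203 counts in T09-treated ESC and 229 in untreated ESC (-0.28, -0.57 to -0.01). Spry4, a feedback inhibitor of receptor tyrosine kinases, had 496 counts in T09-treated ESC and 327 in untreated ESC (0.49, 0.29 to 0.70). Of 18 tested targets of SRF and YAP, 0 were higher and 2 were lower, and 15 of 18 had ratios below 0. In EPSC 15 of 19 tested had ratios below 0, with a median of -0.23. Mical2, an enzyme that oxidises actin, had 8 counts in T09-treated ESC and 52 in untreated ESC (-2.53, -4.10 to -1.73), and Myl9, a myosin light chain, had 37 counts in T09-treated ESC and 80 in untreated ESC (-1.18, -1.83 to -0.64).

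A second group of higher genes belonged to the hypoxia response and to glycolysis. In low oxygen, hypoxia-inducible factors escape prolyl hydroxylation and raise genes for glucose uptake, lactate export and the clearance of mitochondria. Of 20 hypoxia response genes, 19 were tested, 3 were called higher and 0 lower, and 17 of the 19 had ratios above 0. The median was 0.58, against 0.01 over all tested genes. Of 22 tested glycolysis genes, 2 were called higher and 0 lower, 21 had ratios above 0, and the median was 0.39. The shift was therefore broad and mostly under 2-fold.

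Bnip3, which encodes a receptor that targets mitochondria for autophagy, had 2668 counts in T09-treated ESC and 1134 in untreated ESC (1.12, 1.02 to 1.22). Ndrg1, a gene known to be induced by low oxygen, had 822 counts in T09-treated ESC and 346 in untreated ESC (1.13, 0.95 to 1.32). Egln3, one of the prolyl hydroxylases that mark hypoxia-inducible factors for degradation, had 371 counts in T09-treated ESC and 159 in untreated ESC (1.10, 0.84 to 1.39). Each of the 3 was thus a little over 2-fold higher in the treated library. Pdk1, a kinase that keeps pyruvate out of the mitochondria, just missed the call with 4480 counts in T09-treated ESC and 2187 in untreated ESC (0.92, 0.85 to 1.00). Ddit4, an inhibitor of mTORC1, had 2185 counts in T09-treated ESC and 1094 in untreated ESC (0.89, 0.78 to 0.99). Not every member followed. Among examples, Car9, the carbonic anhydrase widely used as a hypoxia marker, had 37 counts in both libraries, and Kdm3a, a histone demethylase induced by low oxygen, had a ratio of -0.16.

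Aldoc, which encodes the brain-type aldolase, had 921 counts in T09-treated ESC and 259 in untreated ESC (1.71, 1.52 to 1.92). Slc16a3, the lactate exporter MCT4, had 7047 counts in T09-treated ESC and 3089 in untreated ESC (1.08, 1.02 to 1.14). Slc2a1, a widely expressed glucose transporter, had 465 CPM in T09-treated ESC and 272 CPM in untreated ESC, a ratio of 0.77. Eno2 and Tpi1, an enolase and triosephosphate isomerase, had ratios of 0.76 and 0.65. At the abundant end, and named as examples, Pgk1 and Ldha had ratios of 0.58 and 0.42, and Gapdh had 0.11. The 22 genes together held 24250 CPM in T09-treated ESC and 19380 CPM in untreated ESC. Eno1 is listed at 0 in both libraries and was not tested. Among the other genes named by the ranking rule, Ndufa4l2, a mitochondrial gene that is induced by hypoxia-inducible factors, had 432 counts in T09-treated ESC and 104 in untreated ESC (1.92, 1.63 to 2.27). Bhlhe40, a transcriptional repressor that is both a clock gene and responsive to hypoxia, had 3189 counts in T09-treated ESC and 963 in untreated ESC (1.61, 1.51 to 1.72). Ccng2, an unconventional cyclin, had 746 counts in T09-treated ESC and 226 in untreated ESC (1.60, 1.39 to 1.83).

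To show what stands in front of the called genes of these lists, 250 bases upstream of the start were read from RefSeq promoters on GRCm38.p6. The build named for the counts is mm9, so these coordinates are RefSeq's and not those of the counts. Of the 5 called genes, 4 had an entry. Capitals mark ACGTG, a form of the core of the element bound by hypoxia-inducible factors, searched on both strands. The form GCGTG was not searched, and the core below means ACGTG alone. In Bnip3 a single CACGTG, 108 bases before the start, matches the core on both strands. Bnip3 lies at chr7:138909507-138909756 on the minus strand, Egln3 at chr12:54203875-54204124 on the minus strand, Aldoc at chr11:78322823-78323072 on the plus strand and Slc16a3 at chr11:120948817-120949066 on the plus strand.
Bnip3: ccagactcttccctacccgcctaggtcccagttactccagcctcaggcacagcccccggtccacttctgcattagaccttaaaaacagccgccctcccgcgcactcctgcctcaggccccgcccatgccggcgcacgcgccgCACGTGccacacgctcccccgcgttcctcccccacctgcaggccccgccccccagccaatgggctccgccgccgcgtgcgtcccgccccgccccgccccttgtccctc
Egln3: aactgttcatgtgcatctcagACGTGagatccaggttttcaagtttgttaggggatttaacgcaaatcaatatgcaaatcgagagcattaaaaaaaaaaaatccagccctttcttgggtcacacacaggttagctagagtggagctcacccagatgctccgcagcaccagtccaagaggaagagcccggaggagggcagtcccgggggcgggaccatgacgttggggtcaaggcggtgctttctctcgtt
Aldoc: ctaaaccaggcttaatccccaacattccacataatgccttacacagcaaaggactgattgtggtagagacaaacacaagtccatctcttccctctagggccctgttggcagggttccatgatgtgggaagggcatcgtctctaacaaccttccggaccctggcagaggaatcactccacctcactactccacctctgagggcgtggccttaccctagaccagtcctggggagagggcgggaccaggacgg
Slc16a3: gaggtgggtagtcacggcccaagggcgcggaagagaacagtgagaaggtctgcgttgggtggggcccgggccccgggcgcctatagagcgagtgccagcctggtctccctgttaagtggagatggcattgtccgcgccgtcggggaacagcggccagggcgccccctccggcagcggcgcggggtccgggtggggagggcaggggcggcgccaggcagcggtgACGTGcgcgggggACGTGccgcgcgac

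Egln3 held the core at 229 bases before the start and Slc16a3 held it at 27 and 14 bases, while these letters are not in the window of Aldoc. So 3 of the 4 windows held ACGTG. The unsearched form GCGTG can be read in the window of Aldoc. The core was held by 16.6% of all 27025 promoters listed, and by 21.9% of the 10468 tested genes with an entry. Among the listed genes with an entry, it was found in 9 of 17 hypoxia response promoters (52.9%) and 9 of 22 glycolysis promoters (40.9%). The core contains a CG pair, and the CG content of the windows was not matched. A match describes the sequence and does not show that a factor was bound. The shares of the lists cover called and uncalled members alike, and the hypoxia list was made of genes named for that response. They therefore describe the lists, and a link between the core and the ratios was not tested.

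**Figure D2:**
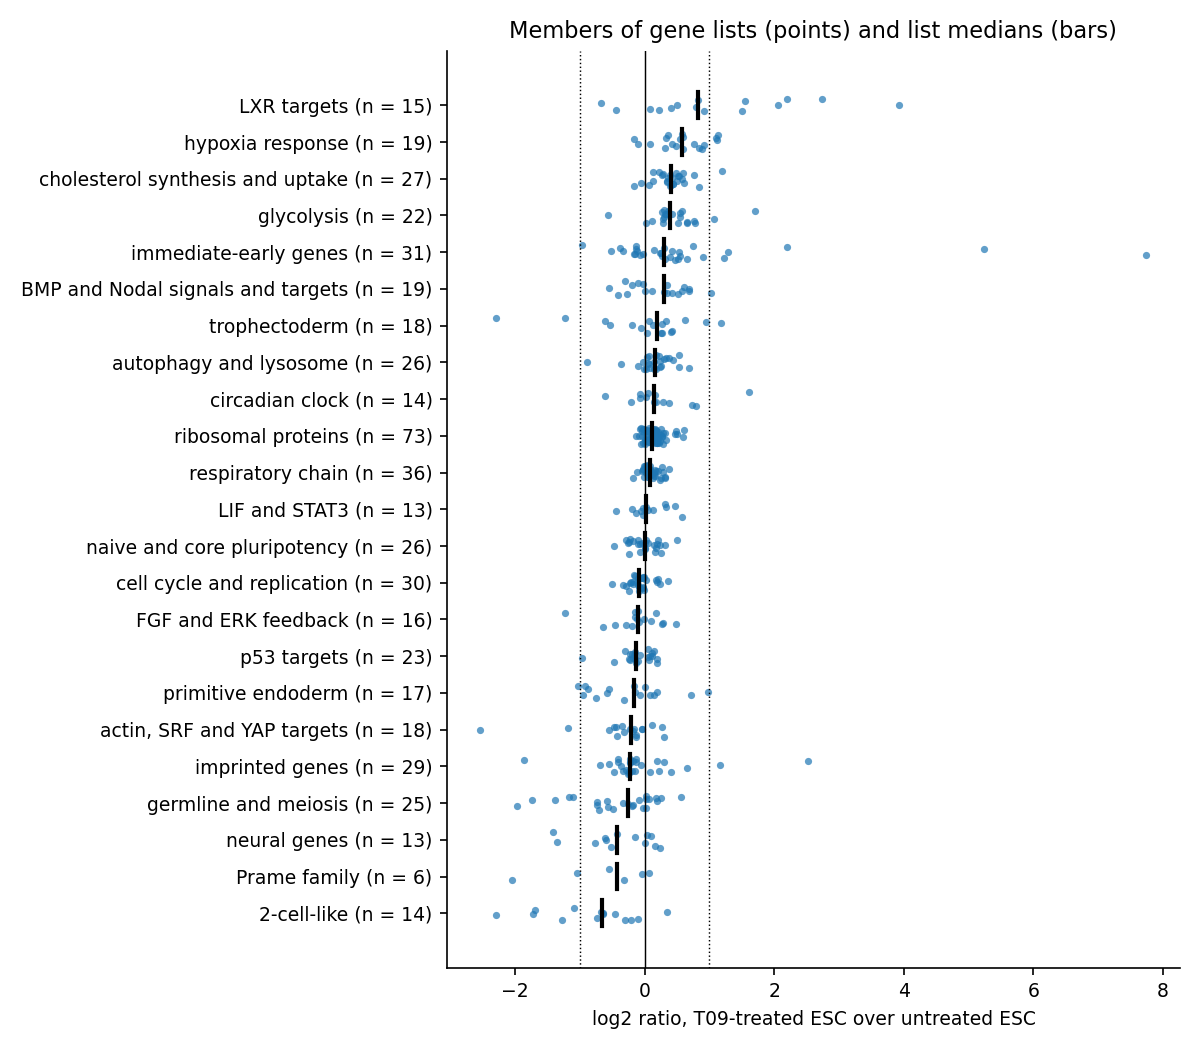
Log2 ratio of T09-treated over untreated ESC for the tested members of 23 gene lists, 1 point per gene, with a black bar at each list's median, dotted lines at a 2-fold ratio and lists in order of their median. The list of LXR targets has the highest median of those drawn, followed by hypoxia response at 0.58, and the 2-cell-like list has the lowest at -0.65.

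Sterol synthesis genes also lay above their untreated levels, by less than 2-fold for nearly all of them. Of 27 tested genes for cholesterol synthesis and uptake, 25 had ratios above 0 and 24 had intervals above 0, with a median of 0.41. Of the 27, 1 was called higher and 0 lower. Pmvk, phosphomevalonate kinase, had 67.3 CPM in T09-treated ESC and 37.5 CPM in untreated ESC (0.84). Dhcr7, the last reductase of the pathway, had 127 CPM in T09-treated ESC and 74.5 in untreated ESC (0.77). Mid1ip1, an activator of acetyl-CoA carboxylase, was called, with 637 counts in T09-treated ESC and 223 in untreated ESC (1.40, 1.18 to 1.63). In EPSC the sterol list had a median of -0.03, with 12 of 27 ratios above 0.

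A family outside these pathways, the Schlafen genes, had the highest median of the 44 lists, 1.99 over 4 tested members, of which 3 were called higher. Schlafen genes are known for roles in lymphocyte quiescence and in binding RNA. Slfn9 had 1065 counts in T09-treated ESC and 253 in untreated ESC (1.95, 1.76 to 2.17). Slfn8 had 142 counts in T09-treated ESC and 29 in untreated ESC (2.11, 1.60 to 2.81), and Slfn10-ps had 68 counts in T09-treated ESC and 14 in untreated ESC (2.03, 1.32 to 3.11). Slfn5 had 137 counts in T09-treated ESC and 69 in untreated ESC (0.86) and was not called. Slfn8, Slfn9 and Slfn10-ps are close copies of one another, so the division of reads among them is uncertain. Untreated ESC were the low library of the stem cells for Slfn9: the level was 29.7 CPM in T09-treated ESC and 7.63 CPM in untreated ESC, against 34.7 CPM in T09-treated EPSC and 32.6 CPM in untreated EPSC.

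Further genes named by the ranking rule or on the list of imprinted genes had varied roles. Krt17, a keratin of stressed and basal epithelium, had 252 counts in T09-treated ESC and 57 in untreated ESC (2.00, 1.61 to 2.47). Prrx2, a mesenchymal homeobox gene, had 132 counts in T09-treated ESC and 26 in untreated ESC (2.15, 1.62 to 2.90). Nxph4, a neurexophilin secreted by neurons, had 98 counts in T09-treated ESC and 19 in untreated ESC (2.15, 1.54 to 3.05). Ndrg2, a relative of Ndrg1, had 1010 counts in T09-treated ESC and 370 in untreated ESC (1.33, 1.16 to 1.51). Slc22a18, an organic cation transporter expressed from the maternal allele, had 53 counts in T09-treated ESC and 7 in untreated ESC (2.51, 1.67 to 4.19). H19, an imprinted noncoding RNA, had 344 counts in T09-treated ESC and 141 in untreated ESC (1.16, 0.89 to 1.47), while Dlk1, a paternally expressed Notch ligand homologue, had 39 counts in T09-treated ESC and 136 in untreated ESC (-1.86, -2.47 to -1.39). Those 3 were the called genes among 29 tested imprinted genes, whose median was -0.22 with 21 below 0.

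**Figure D3:**
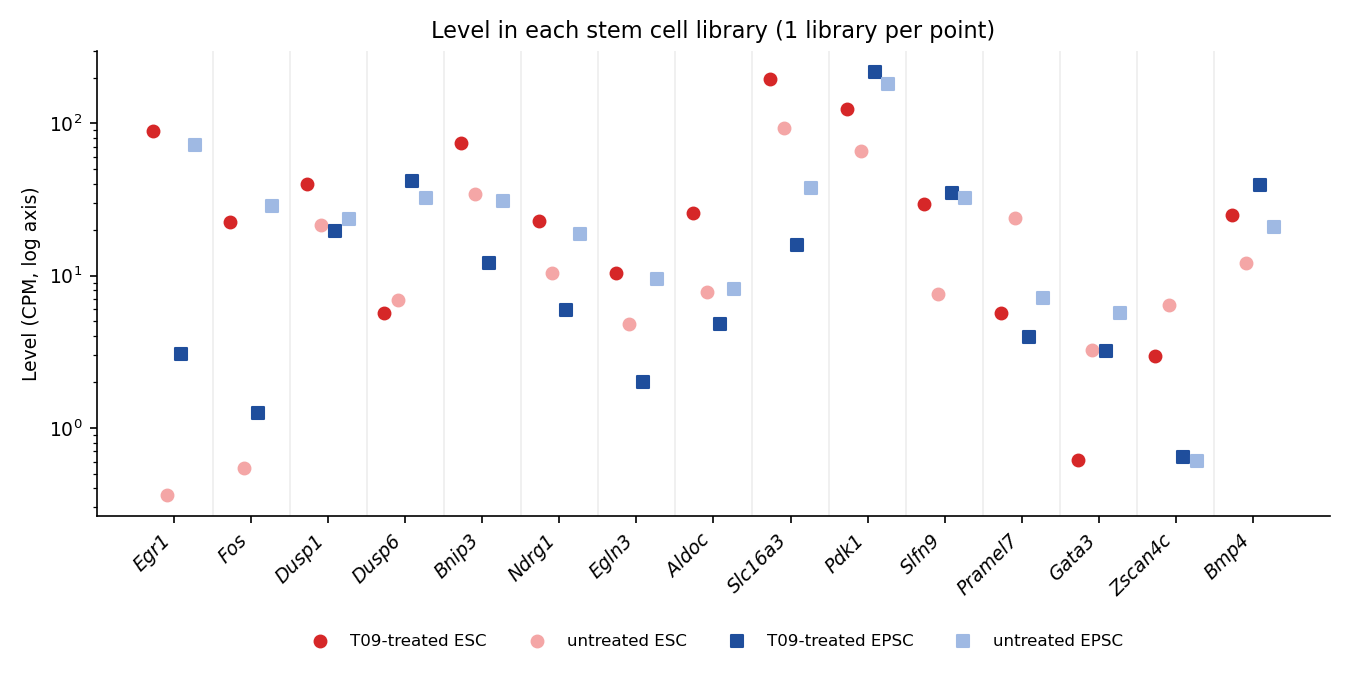
Level in CPM (log axis) of 15 genes in the 4 stem cell libraries, 1 library per point, with T09-treated left of untreated within ESC (red circles) and within EPSC (blue squares). Egr1 and Fos are lowest in untreated ESC, at 0.362 and 0.543 CPM, and Bnip3, Ndrg1, Egln3 and Slc16a3 are higher in T09-treated than in untreated ESC and lower in T09-treated than in untreated EPSC.

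The 2-cell-like programme had the lowest median of the 44 lists. These genes, first expressed at zygotic genome activation, are active in ESC in rare cells, and in bulk RNA fewer such cells and less RNA per cell cannot be told apart. Of 25 listed genes found in the table, 14 were tested, 0 were called higher and 5 lower, and 13 had ratios below 0, with a median of -0.65. Zscan4c, which encodes a zinc finger protein that marks the state, had 107 counts in T09-treated ESC and 213 in untreated ESC (-1.09, -1.45 to -0.76). Zscan4f, its near-identical neighbour, had 54 counts in T09-treated ESC and 124 in untreated ESC (-1.28, -1.80 to -0.84). Tmem92 had 16 counts in T09-treated ESC and 52 in untreated ESC (-1.69, -2.72 to -0.98), and Usp17la, a deubiquitinase of a repeated family, had 13 counts in T09-treated ESC and 44 in untreated ESC (-1.72, -2.89 to -0.95). Dux, the transcription factor that opens the programme, had 3 counts in T09-treated ESC and 21 in untreated ESC (-2.29, -5.31 to -1.18). The list summed to 22.4 CPM in T09-treated ESC and 37.3 CPM in untreated ESC, so it was lower but still present. Reads of the Zscan4 and Usp17l copies may be divided among them in an unknown way. In EPSC only 7 members were tested, of which 1 was called higher and 0 lower and 5 had ratios above 0, with a median of 0.38 and a summed level of 5.93 CPM in T09-treated and 5.21 CPM in untreated EPSC.

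Pramel7, a mouse gene known to sustain the naive state by lowering the DNA methylation cofactor UHRF1, was the best counted of the genes at least 4-fold lower. It had 204 counts in T09-treated ESC and 789 in untreated ESC, a ratio of -2.05 (-2.29 to -1.84). Pramel6, a close relative, had 491 counts in T09-treated ESC and 941 in untreated ESC (-1.05, -1.21 to -0.89). They were the 2 called genes of 6 tested Prame family members. The remaining members had ratios from -0.54 for Pramef17 to 0.07 for Pramef12, which had 3592 counts in T09-treated ESC and 3158 in untreated ESC. The DNA methylation enzymes had 0 of 7 tested genes called and a median of -0.09.

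Germline and meiosis genes, several of which are kept silent by promoter methylation, had 0 of 25 tested members higher and 5 lower, with a median of -0.26 and 17 below 0. Smc1b, the meiotic cohesin subunit, had 92 counts in T09-treated ESC and 289 in untreated ESC (-1.74, -2.12 to -1.42). The other 4 rested on fewer counts. Slc25a31, a testis ADP/ATP carrier, had 7 counts in T09-treated ESC and 31 in untreated ESC (-1.97, -3.69 to -1.05), and Tdrd9, a helicase that silences transposons, had 25 counts in T09-treated ESC and 54 in untreated ESC (-1.16, -1.97 to -0.51). Tex101 and Asz1 had no more than 22 counts in either library. Stra8 and Dazl, named as examples of germ cell regulators with more counts, had ratios of -0.02 and 0.02.

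Lineage lists held calls in both directions, each on a gene with at most 126 counts in either library. Gata3, a trophectoderm transcription factor, had 22 counts in T09-treated ESC and 107 in untreated ESC, or 0.614 against 3.23 CPM (-2.29, -3.13 to -1.72). Trophectoderm genes as a list differed in direction: of 18 tested, 1 was higher and 2 lower, with Krt19 at 1.17, Krt8 at 0.62, and Cdx2, named as an example, at -0.62. Of 17 tested primitive endoderm genes, 0 were higher and 1 lower. Dab2, an endocytic adaptor of that lineage, had 64 counts in T09-treated ESC and 123 in untreated ESC (-1.03), while Gata4, one of its transcription factors, had 198 counts in T09-treated ESC and 92 in untreated ESC (0.98) and was not called. Mttp, which loads lipid onto lipoproteins in visceral endoderm, had 30 counts in T09-treated ESC and 101 in untreated ESC (-1.79, -2.50 to -1.26). Of 13 tested neural genes, 0 were higher and 2 lower, with 5 ratios above 0 and a median of -0.42. Pax6, a regulator of forebrain development, had 8 counts in T09-treated ESC and 23 in untreated ESC. Better counted neural genes did not share 1 direction. Nefh, a neurofilament gene named by the ranking rule and called lower, had 1077 counts in T09-treated ESC and 2149 in untreated ESC (-1.11), Tubb3 had a ratio of -0.77, and Nefl and Nefm had -0.61 and -0.59. Stmn2, Nes and Sox1, named as examples of members that were not lower, had ratios of 0.03, 0.01 and 0.25. Of 7 tested mesoderm genes 1 was higher, Tbx6, with 32 counts in T09-treated ESC and 12 in untreated ESC, a call lost with an assumed biological variation of 0.2 or a prior count of 10. The calls of Krt19 and Dab2 were lost with a prior count of 10.

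The remaining lower genes named by the ranking rule covered transport, metabolism and the cell surface. Slc5a1, a sodium-coupled glucose transporter, had 97 counts in T09-treated ESC and 338 in untreated ESC (-1.89, -2.25 to -1.58). Aass, the first enzyme of lysine breakdown, had 214 counts in T09-treated ESC and 547 in untreated ESC (-1.46, -1.70 to -1.23). Cd4, a coreceptor of T cells, had 130 counts in T09-treated ESC and 342 in untreated ESC (-1.49, -1.81 to -1.21), Serpina3m, a protease inhibitor, had 15 counts in T09-treated ESC and 59 in untreated ESC (-1.95), and Fam198b had 185 counts in T09-treated ESC and 509 in untreated ESC (-1.56). Timp3, an inhibitor of matrix metalloproteases, had 54 counts in T09-treated ESC and 153 in untreated ESC (-1.58, -2.09 to -1.16). Among the better counted, Prrt3 had 931 counts in T09-treated ESC and 2011 in untreated ESC (-1.22, -1.34 to -1.11), Xlr3c, one of a set of near-identical X-linked copies, had 715 in T09-treated ESC and 1480 in untreated ESC (-1.16), Pla2g4e, a phospholipase, had 495 in T09-treated ESC and 951 in untreated ESC (-1.05), and Npr3, the clearance receptor for natriuretic peptides, had 526 in T09-treated ESC and 1008 in untreated ESC (-1.05). T09-treated ESC were the lower library for each of them.

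The lists for epithelial junctions and keratins, matrix, and calcium binding gave at most 1 call in each direction. Cldn7, a tight junction claudin, had 56 counts in T09-treated ESC and 22 in untreated ESC (1.17, 0.50 to 2.02). It was the 1 called gene of 15 tested on the junction and keratin list. Krt17, Krt19 and Crb3, described elsewhere here, were also called higher and are not on that list. Loxl2, which crosslinks collagen, had 392 counts in T09-treated ESC and 180 in untreated ESC (1.00, 0.75 to 1.27), and with Timp3 it made up the 2 calls among 19 tested matrix genes. The call of Loxl2 was lost with DESeq2-type size factors, library totals or a prior count of 10. S100a14 had 28 counts in T09-treated ESC and 10 in untreated ESC and was the 1 called gene of 16 tested S100 and annexin genes. With a prior count of 10 the calls of Cldn7 and S100a14 were lost, and that of S100a14 was also lost with an assumed biological variation of 0.2. Anxa2, a membrane-binding annexin with more counts, had 932 counts in T09-treated ESC and 443 in untreated ESC (0.96, 0.80 to 1.13) and was not called. Of 5 tested placental trophoblast genes 0 were called, with a median of -0.59. The best counted of them was Peg10, a retrotransposon-derived imprinted gene needed for the placenta, with 10923 counts in T09-treated ESC and 14796 in untreated ESC (-0.55, -0.58 to -0.51).

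Bmp4, a ligand that supports self-renewal through Id genes, was the 1 called gene of 19 tested on the BMP and Nodal list. It had 893 counts in T09-treated ESC and 404 in untreated ESC (1.03, 0.86 to 1.21). Its target Id1 had a ratio of 0.61, and Lefty2, a Nodal inhibitor, had 0.58, with a list median of 0.30. Bmp6, a ligand that is not on that list, was called lower in both ESC and EPSC. Of 13 tested LIF and STAT3 genes 0 were called, and the feedback inhibitor Socs3 had a ratio of 0.47. Lef1, a Wnt effector, had 9 counts in T09-treated ESC and 38 in untreated ESC (-1.96, -3.42 to -1.12) and was the 1 called gene of 16 tested Wnt pathway targets. It was likewise the 1 called gene of 13 formative genes, among which Tcf15, which primes epiblast cells, had 643 counts in T09-treated ESC and 312 in untreated ESC (0.93) and was not called.

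Lists for other nuclear receptors were read next. Of 15 genes listed for PXR, CAR and FXR, 7 were tested and 0 were called, and the defining genes Nr1i2, Nr1i3, Cyp3a11, Cyp2b10 and Nr0b2 all lay under the count minimum. Among 14 tested clock genes, which include ROR targets, 1 was higher, Bhlhe40, and the list median was 0.15. Ciart and Rora had ratios of 0.80 and 0.74. Targets of PPAR, a further receptor of lipids, had 1 higher gene and 1 lower among 16 tested. Pdk4, a kinase that restrains pyruvate dehydrogenase, had 164 counts in T09-treated ESC and 74 in untreated ESC (1.02, 0.63 to 1.45), and its call was lost with DESeq2-type size factors or a prior count of 10. Vnn1, a pantetheinase, had 14 counts in T09-treated ESC and 43 in untreated ESC (-1.59, -2.72 to -0.83).

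Housekeeping and stress lists had no calls except among histone genes. The 73 tested ribosomal protein genes had a median of 0.12 with 62 above 0, and the highest were Rps28 and Rps29 at 0.61 and 0.60. The 36 respiratory chain genes had a median of 0.08, and the 30 cell cycle genes had -0.08 with 24 below 0. Medians were -0.13 for 23 p53 targets, 0.14 for 26 ATF4 targets, -0.06 for 20 ER stress genes, 0.00 for 16 heat shock genes, 0.07 for 21 NRF2 targets and -0.07 for 15 interferon response genes. Within the last list H2-K1, a class I histocompatibility gene, had 1536 counts in T09-treated ESC and 751 in untreated ESC (0.92, 0.79 to 1.05), and its EPSC ratio was 0.77. Of 26 autophagy and lysosome genes 21 had ratios above 0 and 0 were called, and Calcoco2, an autophagy receptor, stood apart with 7577 counts in T09-treated ESC and 13037 in untreated ESC (-0.89, -0.94 to -0.85). Of 69 replication-dependent histone genes only 21 were tested, and 5 were called higher, each with at most 32 counts in either library. Hist1h3a had 24 counts in T09-treated ESC and 2 in untreated ESC (2.62, 1.46 to 6.60). These genes resemble one another, so the division of reads among them is uncertain.

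The same genes were then read in the EPSC pair, in which 571 of 13632 tested genes (4.19%) were called, 122 higher (0.895%) and 449 lower (3.29%). Of the 186 genes higher in T09-treated ESC, 144 were tested in EPSC, where 11 were called higher (7.64% of 144) and 25 lower (17.4%). The 11 make up 9.02% of the EPSC higher calls and the 25 make up 5.57% of the EPSC lower calls. Of the 11, 7 are on the lists of LXR targets or fatty acid synthesis: Abca1, Abcg1, Mylip, Srebf1, Scd1, Scd2 and Scd3, the last 3 of which resemble one another in sequence. The other 4, of which 3 are named after their values were seen, included Crb3, a polarity protein gene, Igip and Krtcap3. Crb3 had 85 counts in T09-treated ESC and 20 in untreated ESC (1.88, 1.26 to 2.76), and its EPSC ratio was 1.27. Of the 339 genes lower in T09-treated ESC, 256 were tested in EPSC, where 11 were higher (4.3%) and 23 lower (8.98%). Npr3, Tdrd9, Myl9 and Vnn1 were among the 23.

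The immediate-early and hypoxia response lists had medians of the other sign in EPSC. Egr1 had 3.04 CPM in T09-treated EPSC and 72.2 CPM in untreated EPSC (-4.55), and Fos had 1.26 CPM in T09-treated EPSC and 28.7 CPM in untreated EPSC (-4.45). Untreated ESC and T09-treated EPSC were thus the low libraries for both genes. Of 32 immediate-early genes tested in EPSC, 0 were higher and 8 lower, with a median of -0.29. Bnip3 had 12.1 CPM in T09-treated EPSC and 30.8 CPM in untreated EPSC, and Slc16a3 had 15.9 CPM in T09-treated EPSC and 37.9 CPM in untreated EPSC. Of 20 hypoxia response genes tested in EPSC, 0 were higher and 5 lower, with a median of -0.52. Glycolysis genes had 0 higher and 2 lower of 22, with a median of -0.10. Of the 25 genes called higher in ESC and lower in EPSC, 4 were immediate-early genes and 4 belonged to hypoxia response or glycolysis. Bmp4 was near its ESC ratio, at 0.91 in EPSC, and Calcoco2 was at -0.80.

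**Figure D4:**
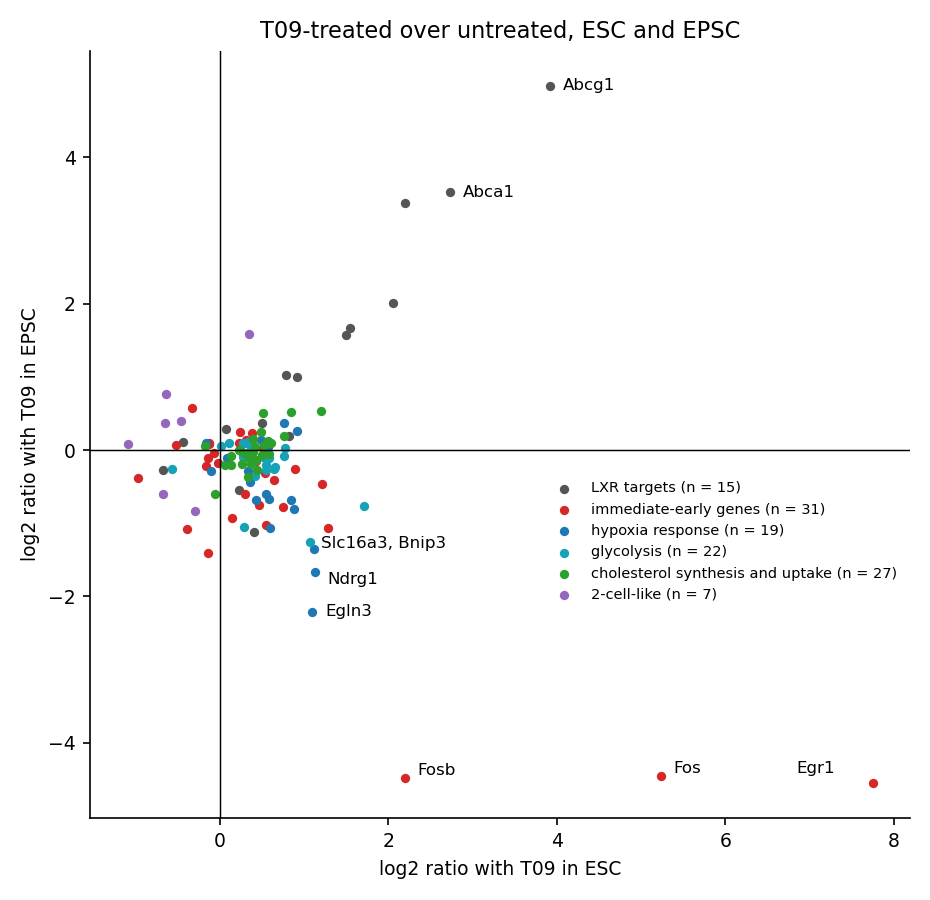
Log2 ratio with T09 in EPSC (vertical axis) against that in ESC (horizontal axis) for members of 6 gene lists tested in both pairs, 1 point per gene and 1 library per group. LXR targets such as Abcg1 lie in the upper right, Egr1, Fos and Fosb lie at the lower right with EPSC ratios of -4.55, -4.45 and -4.48, and the called hypoxia and glycolysis genes Slc16a3, Bnip3, Ndrg1 and Egln3 lie right of and below 0.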

How the data were processed

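Whole-number read counts per gene symbol were deposited by the authors as 1 table with 1 column for each of the 8 libraries. STAR, Cuffnorm, HTSeq and the build mm9 are named in the submitters' processing notes. Versions, the annotation and the strand setting are not given in the sources used here. Per the labels' protocols, libraries were made from DNase-treated total RNA with a directional kit. If strand was not used in counting, overlapping and antisense genes cannot be told apart. Of 24888 symbols, 24803 matched a symbol or synonym of RefSeq on GRCm38.p6, from which promoters were taken.

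Counts were scaled with TMM factors over all 8 libraries (edgeR 4.0.16, R 4.3.3), and ratios and intervals were computed in Python 3.11.15 with scipy 1.17.1. The depth gives a floor of 0.0837 CPM in T09-treated ESC and 0.0904 CPM in untreated ESC for 3 counts. PCR copies cannot be told from molecules in these reads, and intervals and floors therefore cover no more than counting error. Tested on simulated data, the rule recovered the changes put in. Those changes were larger than the 2-fold threshold and lay in well counted genes only. Recovery near 2-fold or among thinly counted genes, which hold most calls, was therefore not tested. When variation between cultures was added to the simulation, the rule also called genes that had been given no change.

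Genes named were, outside the lists of LXR targets and fatty acid synthesis and without predicted loci, the 12 higher and 12 lower with the interval bound furthest from 0 at 50 or more counts, the 8 higher and 8 lower with the largest ratio at 500 or more counts, and, from every list, up to 5 members with the largest ratio. LXR genes and pluripotency genes were added as checks. Comparisons, the 44 gene lists and this rule were chosen with earlier results of these data known. Lists share some members. Alternatives were other scalings, count minimums, fold thresholds, prior counts and an assumed biological variation. The blastoid libraries entered the scaling only. A few genes are not reported here.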

Additional observations from a re-analysis of the deposited data

Results flagged for a closer look

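A group of 12 named genes was called in opposite directions in ESC and EPSC, of 238 genes that the naming rule takes. Each state had 1 treated and 1 untreated library, so the difference between the states was not tested. Of the immediate-early genes, Egr1 had a log2 ratio of 7.74 in ESC and -4.55 in EPSC, Fos had 5.23 in ESC and -4.45 in EPSC, Fosb had 2.19 in ESC and -4.48 in EPSC, and Maff had 1.28 in ESC and -1.07 in EPSC. Among hypoxia response and glycolysis genes, Bnip3 had 1.12 in ESC and -1.35 in EPSC, Egln3 had 1.10 in ESC and -2.21 in EPSC, Ndrg1 had 1.13 in ESC and -1.67 in EPSC, and Slc16a3 had 1.08 in ESC and -1.25 in EPSC. Ndufa4l2, the mitochondrial gene induced by hypoxia-inducible factors, had 1.92 in ESC and -1.35 in EPSC. Loxl2, a lysyl oxidase of the matrix, had 1.00 in ESC and -1.03 in EPSC, and its call in ESC was lost with DESeq2-type size factors, library totals or a prior count of 10. Slfn8 had 2.11 in ESC and -1.07 in EPSC, with reads that its close copies may share. Hist1h2bg, a histone gene with 32 counts in T09-treated ESC and 13 in untreated ESC, had 1.08 in ESC and -1.78 in EPSC.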

How the results depend on the processing

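The number of genes called depended on the thresholds more than on the scaling. Against 525 calls (186 higher, 339 lower), there were 913 (313 and 600) with no count minimum and 124 (57 and 67) with a minimum of 100 counts. A threshold of 1.5-fold gave 1293 (540 and 753) and one of 4-fold gave 51 (22 and 29). A prior count of 10 gave 301 (113 and 188). DESeq2-type size factors, library totals, TMM on the ESC pair, a prior count of 0.5 and an assumed biological variation of 0.2 gave 429 to 573 calls, within 1.5 times. The share of calls that were higher was 35.4%, and 46% with a minimum of 100 counts. Of the list medians under these alternatives, 305 stayed within the median counting interval of the list's members and 3 moved: Prame family to -0.05 and Schlafen family to 0.86 with no count minimum, and visceral endoderm to -0.62 with a minimum of 100 counts. Of the values of named genes, 1186 stayed within the gene's counting interval and 4 moved, to 7.11 for Egr1 and 1.46 for Hist1h3a with a prior count of 10, and to -0.30 for Hspd1 and 0.03 for Pou5f1 with DESeq2-type size factors. No called sign was reversed among the named genes under the alternatives run.

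The calls of the hypoxia response, glycolysis and Schlafen lists were as many with an assumed biological variation of 0.2 and with a prior count of 10. Those of histone genes went to 3 and 1, and those of germline genes to 4 and 2. The single higher calls of the S100 and mesoderm lists were lost under both. The higher calls of the junction, trophectoderm, matrix and PPAR lists and the lower call of primitive endoderm were lost with a prior count of 10. Those of matrix and PPAR were lost with DESeq2-type size factors, and that of matrix with library totals. With a minimum of 100 counts, 2 of the 5 lower 2-cell-like genes, 1 of the 5 lower germline genes and 0 of the 5 higher histone genes were left, by construction, as were 4 of 5 higher immediate-early genes. No paired analysis was possible because each group had 1 library. For the same reason no ratio carries an error from culture to culture, and genes under 100 counts, which hold most calls, have the widest counting intervals.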
